A study of Mus musculus with 18 samples.

Results

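Wnt signalling genes were followed as a family across 3 mouse models of mammary cancer and the normal gland. The family was taken by symbol from the deposited gene counts and comprised every Wnt ligand, Frizzled receptor, secreted Frizzled-related protein (Sfrp) and Dickkopf protein (Dkk) with a numbered symbol, together with the R-spondin receptors Lgr4, Lgr5 and Lgr6 and the pathway inhibitor Axin2. The rule gave 41 of 55450 genes, namely 19 ligands, 10 Frizzleds, 4 Sfrp genes, 4 Dkk genes, 3 Lgr genes and Axin2. No row carried the symbol Sfrp3, and that gene, listed as Frzb, was counted with the other pathway genes.

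Wnts are secreted lipid-modified proteins that bind Frizzled receptors on the cell surface. With the coreceptors Lrp5 and Lrp6 they keep β-catenin from being degraded, so that it enters the nucleus and acts with Tcf and Lef factors, and Axin2 is a target that feeds back to switch the pathway off. Some ligands, Wnt5a among them, act largely without β-catenin, through receptors such as Ror2 and the planar cell polarity proteins. R-spondins bound to Lgr receptors keep Frizzleds at the surface, while Sfrp proteins bind Wnts outside the cell and Dkk proteins bind the Lrp coreceptors. In the mammary gland Wnt4 is a ligand made by hormone-sensing luminal cells, and Wnt-responsive cells lie largely in the basal layer.

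RNA was sequenced from 5 P/Rbf tumors, 5 tumors of the B1/P model, 5 of the B1/P/Rbf model and 3 normal mammary glands, each from a different female C57Bl/6 mouse (the floxed lines were bred onto C57Bl/6 J, per the methods). The genotypes were Brca1fl/fl, Trp53fl/fl and TgK18GT121Tg/+ for B1/P/Rbf, Brca1fl/fl and Trp53fl/fl for B1/P, Trp53fl/fl and TgK18GT121Tg/+ for P/Rbf, and wild type for the normal glands. B1 and P thus stand for the floxed Brca1 and Trp53 genes, Trp53 being floxed in all 15 tumors, and Rbf stands for the T121 transgene, an N-terminal piece of a viral large T antigen that inhibits the pocket proteins of the Rb family in cells using the keratin 18 promoter. Tumors were induced in young adult females by injecting an adenovirus that carries Cre through the nipple of 1 abdominal gland, and their end point was set by size, so mice were not matched for age at collection. The RNA came from tumor tissue that includes stroma, and the normal glands are whole glands with their fat pad. Tumors and glands are numbered within a group only to name them, and values are given in that order.

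Expression is given as CPM (counts scaled to a common library size) after TMM scaling, from total expected counts of 27661173 to 37794889 per sample. Brca1 stood at 29.8 ± 8.97 CPM, 15.3 ± 8.78 CPM and 79 ± 32.7 CPM in the tumor groups in the order B1/P/Rbf, B1/P, P/Rbf (SD, n = 5 each) and 5.45 ± 0.735 CPM in normal glands (SD, n = 3). Trp53 was at 14.7 ± 4.68 CPM, 14.8 ± 7.48 CPM and 10.8 ± 1.96 CPM in the same tumor groups and at 61.5 ± 9.16 CPM in the glands. In B1/P/Rbf tumor 3 the loss of Brca1 had been found by RT-qPCR to be incomplete. The floxed alleles lose part of each gene, and reads from the rest of the gene and from unrecombined stroma are still counted. The summed CPM of 7 of 7 markers of hormone-sensing luminal cells was 1546 to 3531 in B1/P/Rbf tumors, 68.4 to 692 in B1/P tumors and 1207 to 3144 in P/Rbf tumors. For 10 of 10 basal markers it was 68.5 to 354, 450 to 2307 and 95.2 to 1494, and for 10 of 10 fibroblast markers 1036 to 5399, 3149 to 13732 and 1474 to 4381. No marker was at 0 in every sample of a group. The normal glands held 10 of 10 adipocyte markers at 31666 to 44666 CPM and 8 of 8 skeletal muscle markers at 26086 to 50819 CPM against at most 289 and 693 CPM in any tumor. The 8 of 8 luminal epithelium markers summed to 3445 to 7309, 812 to 3429 and 6899 to 12952 CPM in the tumor groups and to 2260 to 2707 CPM in the glands. These are whole tissues, in which fewer cells of a type and less RNA per cell cannot be told apart, and the part of cell makeup in the differences below was not tested.

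Of the 41 genes, 33 passed the filter on low counts. Wnt1, Wnt3, Wnt3a, Wnt8a, Wnt8b, Wnt9b, Dkk1 and Dkk4 did not, and the highest count among these 8 genes was 21 for Wnt1, in P/Rbf tumor 5. A gene that passed only through the group in which it was high had to differ, so the counts below describe the genes that passed. A call is said to hold in every alternative where it held in each alternative fit that tested the gene, since stricter filters leave out low genes.

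In B1/P/Rbf tumors against B1/P tumors, 4 of the 33 genes were higher and 12 lower at an edgeR adjusted p of 0.05 or less, where 7.36% of all 19186 genes tested were higher and 9.29% lower. The 4 that rose were Wnt5a, Fzd10, Sfrp5 and Dkk2. The 12 that fell were the ligands Wnt6, Wnt10a and Wnt10b, the receptors Fzd1, Fzd2, Fzd3, Fzd7 and Fzd9, the R-spondin receptors Lgr4 and Lgr6, and Dkk3 and Axin2. The median log2 fold change of the 33 genes was -1.34, and that of all genes was -0.06. In 8 genes the 5 values of one group lay wholly outside those of the other, 2 of them higher (background 5.00% of genes) and 6 lower (background 5.48%). Without B1/P tumor 2, which stood apart from its group in several of the genes below, there were 13 such genes. Leaving out a tumor makes such separation easier, and the share of all genes was not computed for this count.

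In P/Rbf tumors against B1/P tumors, 5 of the 33 genes were higher and 10 lower, beside 8.43% and 10.8% of all genes. Wnt4, Wnt5a, Wnt7b, Fzd4 and Dkk2 rose, and Wnt5b, Wnt6, Wnt10b, Fzd2, Fzd3, Fzd7, Fzd9, Sfrp4, Lgr6 and Axin2 fell. The median log2 fold change was -1.20 against -0.05 for all genes. No higher gene (background 3.74%) and 3 lower genes (background 5.11%) had groups without overlap. Such genes numbered 9 without B1/P tumor 2, 8 without P/Rbf tumor 2 and 5 without B1/P tumor 5, with no share of all genes computed. This comparison shares its 5 B1/P tumors with the one before, so the values of both are set side by side and no overlap between them is read as a result. It is also the less firm of the pair, since 5 of the 15 calls remained when only the compared groups were fitted, 5 when a term for 2 assumed sets of libraries was added, 7 with limma-voom, 8 without P/Rbf tumor 5, 8 without B1/P tumor 1, 8 without B1/P tumor 4 and 9 without P/Rbf tumor 1. These sets are an assumption, inferred from the study's published fold changes. Only the B1/P group lies in both sets, so the term rests on differences among the B1/P tumors. Neither the labels nor the methods name them, and the methods describe a single sequencing pool.

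In B1/P/Rbf tumors against P/Rbf tumors no gene of the family was called by edgeR in either direction, where 0.219% of all genes were higher and 0.0625% lower. At an unadjusted p under 0.05 there were 8 of 33, beside 16.1% of all genes, and DESeq2 called 2 of 33, beside 5.53% of the 18569 genes it gave an adjusted p. No gene had groups without overlap, beside 1.71% of all genes higher and 1.31% lower. Without B1/P/Rbf tumor 3, in which Brca1 loss was incomplete, 3 genes had groups without overlap, with no share of all genes computed. The part of the incomplete loss in this was not tested.

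**Figure D1:**
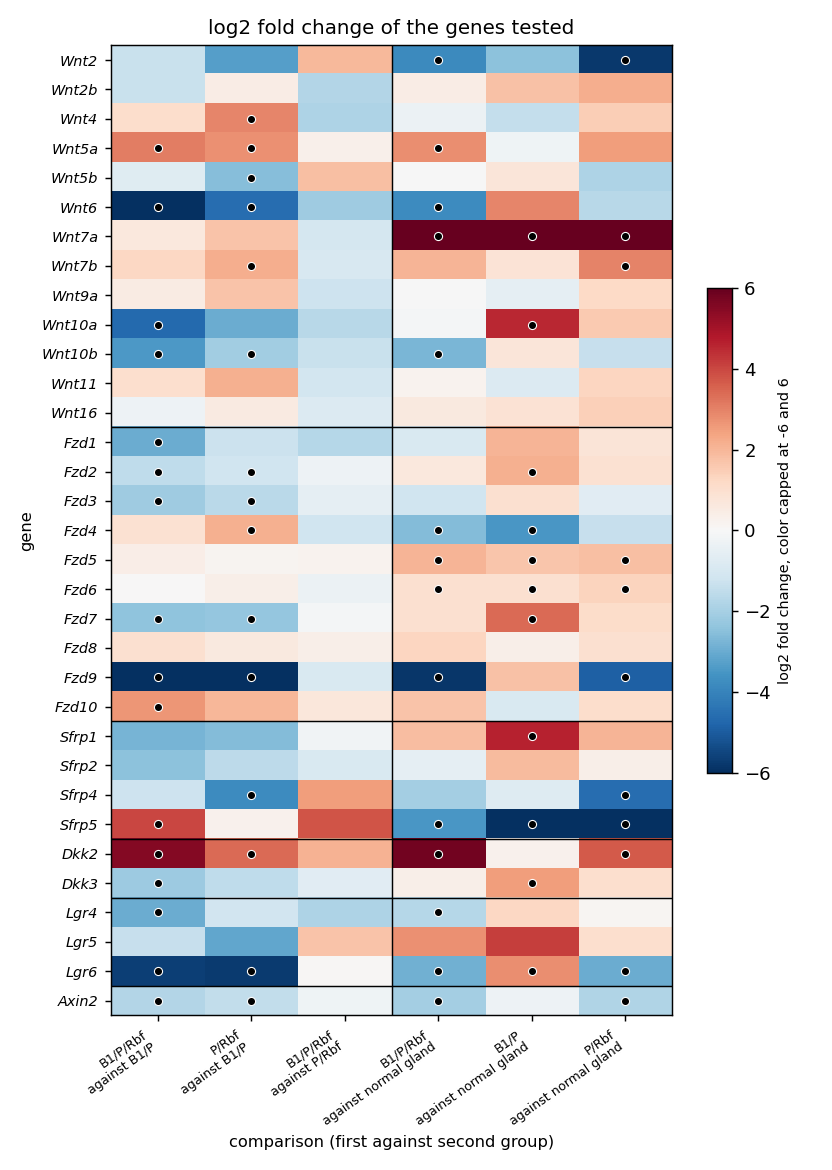
Log2 fold changes of the 33 genes tested (rows) in the 6 comparisons (columns, first against second group), with color showing the log2 fold change capped at -6 and 6 and a dot where edgeR's adjusted p was 0.05 or less. B1/P/Rbf against B1/P holds 16 dots, P/Rbf against B1/P holds 15, and B1/P/Rbf against P/Rbf holds none.

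The promoters of 5 genes, chosen after their values were seen, are printed here as examples of the sequence upstream of called genes of different roles: Axin2, Fzd7 and Lgr6, which fell in both T121 groups against B1/P, and Dkk2 and Sfrp5, which rose in B1/P/Rbf tumors. The calls of Axin2 and Sfrp5 were lost in some alternatives, given with their values below. Each is the 250 bases before the RefSeq start on GRCm38.p6, 5′ to 3′ along the gene, with matches to either of 2 sets of letters in capitals. TCF/LEF letters were CTTTGAT or CTTTGTT and E2F letters were TTTCCCGC, TTTCGCGC, TTTGCCGC or TTTGGCGC, on both strands, and no run of letters belongs to both sets.
Axin2 (chr11:108920099-108920348, plus strand): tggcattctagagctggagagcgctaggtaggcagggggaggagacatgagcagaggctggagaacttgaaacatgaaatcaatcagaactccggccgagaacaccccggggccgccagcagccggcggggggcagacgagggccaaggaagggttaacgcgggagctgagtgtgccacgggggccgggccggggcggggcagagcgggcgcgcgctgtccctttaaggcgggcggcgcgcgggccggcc
Fzd7 (chr1:59481897-59482146, plus strand): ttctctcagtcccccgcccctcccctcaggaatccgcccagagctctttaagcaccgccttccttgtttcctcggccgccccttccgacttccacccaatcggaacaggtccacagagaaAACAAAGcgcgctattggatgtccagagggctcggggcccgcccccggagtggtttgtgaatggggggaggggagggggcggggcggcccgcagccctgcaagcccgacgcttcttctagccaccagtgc
Lgr6 (chr1:135105277-135105526, minus strand): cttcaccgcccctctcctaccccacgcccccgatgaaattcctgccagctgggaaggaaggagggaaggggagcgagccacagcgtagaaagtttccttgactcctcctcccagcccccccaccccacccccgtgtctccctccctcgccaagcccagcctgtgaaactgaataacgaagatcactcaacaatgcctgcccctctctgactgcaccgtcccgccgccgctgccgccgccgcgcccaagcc
Dkk2 (chr3:132085042-132085291, plus strand): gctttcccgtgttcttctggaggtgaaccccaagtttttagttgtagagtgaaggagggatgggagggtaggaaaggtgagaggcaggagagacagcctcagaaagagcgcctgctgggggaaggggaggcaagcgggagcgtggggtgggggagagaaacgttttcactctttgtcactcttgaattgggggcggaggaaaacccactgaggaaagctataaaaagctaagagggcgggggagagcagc
Sfrp5 (chr19:42202253-42202502, minus strand): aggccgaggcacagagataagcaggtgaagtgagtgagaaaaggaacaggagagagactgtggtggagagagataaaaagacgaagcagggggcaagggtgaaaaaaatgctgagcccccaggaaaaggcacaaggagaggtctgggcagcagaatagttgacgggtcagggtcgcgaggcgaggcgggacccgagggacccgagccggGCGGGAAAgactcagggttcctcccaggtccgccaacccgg

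Capitals in Fzd7 mark a TCF/LEF match, CTTTGTT on the opposite strand, 130 to 124 bases before the start, and capitals in Sfrp5 mark an E2F match, TTTCCCGC on the opposite strand, 41 to 34 bases before it. The windows of Axin2, Lgr6 and Dkk2 hold neither, which says only that these letters are not in this window. Among 27025 promoters of the same length, 8.04% hold the TCF/LEF letters and 1.91% the E2F letters. Of the 28 family genes with a window, 3 hold the TCF/LEF letters (Fzd7, Wnt11 and Dkk1) and 1 the E2F letters (Sfrp5). The RefSeq start of Fzd7 lies upstream of the GENCODE start used for the counts.

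Among the ligands, B1/P/Rbf tumors were led by Wnt5a and B1/P tumors by no single Wnt. Per kilobase of exon, Wnt5a averaged 54.1 CPM per kb in B1/P/Rbf tumors, 61.8% of all Wnt expression there, and ranked first in 5 of 5. Wnt5a (43.8 CPM per kb), Wnt4 (34.7) and Wnt7b (29) shared the lead in P/Rbf tumors, Wnt5a being first in 3 of 5 and Wnt4 in 2 of 5. In B1/P tumors Wnt10a (8.38), Wnt5b (7.88), Wnt7b (6.45) and Wnt5a (6.45) were close together and the leading ligand differed between tumors, so the order of these means is not beyond their spread. In normal glands Wnt4 was first in 3 of 3, at 12.3 CPM per kb.

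Wnt5a (chr14:28504750-28527448, plus strand) was measured at 797, 377, 391, 166 and 387 CPM in the B1/P/Rbf tumors and 23.3, 17.2, 33.4, 13.2 and 165 CPM in the B1/P tumors. Wnt5a in the P/Rbf tumors was at 880, 56.5, 164, 65.1 and 549 CPM and in the normal glands at 66.6, 51.2 and 64.1 CPM. All 5 B1/P/Rbf tumors were above all B1/P tumors, the gap being that from 166 CPM in B1/P/Rbf tumor 4 to 165 CPM in B1/P tumor 5, while P/Rbf tumors lay on both sides of that value. For Wnt5a the log2 fold change over B1/P was 3.07 ± 0.82 (SE, edgeR adjusted p = 0.0172) in B1/P/Rbf tumors and 2.76 ± 0.81 (SE, edgeR adjusted p = 0.025) in P/Rbf tumors. For B1/P/Rbf it moved to 4.28 without B1/P tumor 5, 3.67 with limma-voom and 4.10 with a library-set term, and it was called in every alternative run. For P/Rbf it moved to 3.97 without B1/P tumor 5 and 2.10 without P/Rbf tumor 1, and the call was lost without B1/P tumor 1, 3 or 4 or P/Rbf tumor 1 or 5 (adjusted p = 0.0524 to 0.0678), with only the compared groups fitted (adjusted p = 0.0843) and with a library-set term (adjusted p = 0.252). An antisense gene, Gm2670, shares 358 exon bases with Wnt5a and reached at most 5.78 CPM.

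Wnt4 (chr4:137277489-137299726, plus strand), a ligand that acts downstream of progesterone in the mammary gland, had 72.1, 8.85, 53.7, 56.5 and 8.86 CPM in the B1/P/Rbf tumors and 16.8, 3.55, 34.5, 5.88 and 36.6 CPM in the B1/P tumors. Wnt4 in the P/Rbf tumors was at 58.5, 316, 61.3, 259 and 33.9 CPM. P/Rbf tumors 2 and 4 stood highest, and 4 of 5 P/Rbf tumors exceeded every B1/P tumor. Wnt4 was higher in P/Rbf than in B1/P tumors (log2 fold change 2.91 ± 0.79 SE, edgeR adjusted p = 0.0175), a call lost only with a library-set term (adjusted p = 0.146). In B1/P/Rbf tumors it spread from 8.85 to 72.1 CPM and was not called (log2 fold change 1.04 ± 0.75 SE, edgeR adjusted p = 0.36). Hormone-sensing luminal markers were also higher in the T121 groups, as given above, and their part in the Wnt4 difference was not tested.

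Wnt7b (chr15:85535437-85582473, minus strand), a β-catenin-dependent ligand, had 71.3, 40.4, 95.9, 66.9 and 94.5 CPM in the B1/P/Rbf tumors and 14.5, 99.9, 5, 9.32 and 29.4 CPM in the B1/P tumors. Wnt7b in the P/Rbf tumors was at 105, 355, 63.8, 72.3 and 114 CPM. B1/P tumor 2 lay within the T121 range and the other B1/P tumors below it. The rise in P/Rbf over B1/P tumors was called (log2 fold change 2.17 ± 0.66 SE, edgeR adjusted p = 0.0309) and depended on single tumors, as the log2 fold change moved to 3.29 without B1/P tumor 2 and 1.49 without P/Rbf tumor 2, and the call was lost without B1/P tumor 1, 3, 4 or 5 or P/Rbf tumor 2 (adjusted p = 0.0536 to 0.098), with only the compared groups fitted (adjusted p = 0.102) and with a library-set term (adjusted p = 0.0757). Over B1/P the difference in B1/P/Rbf tumors was not called (log2 fold change 1.22 ± 0.65 SE, edgeR adjusted p = 0.208). Wnt7b became called without B1/P tumor 2 (log2 fold change 2.34, adjusted p = 0.00824) and with limma-voom (adjusted p = 0.0318). An antisense gene, AU022754, shares 324 exon bases with Wnt7b and ran from 0.126 to 13.6 CPM.

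Wnt6, Wnt10a and Wnt10b, ligands that act through β-catenin, fell in B1/P/Rbf tumors. None of these calls was lost in any alternative run. Wnt6 (chr1:74771892-74785322, plus strand) and Wnt10a (chr1:74791516-74804179, plus strand) are neighbours on the same strand with 6193 bases between them. Wnt6 had 0.0284, 0.054, 0.0276, 0.0507 and 0.26 CPM in the B1/P/Rbf tumors and 17.6, 0.0296, 13.7, 12.2 and 1.07 CPM in the B1/P tumors. Wnt6 in the P/Rbf tumors was at 1.01, 0.568, 0.101, 0.158 and 0 CPM. B1/P tumor 2 was as low as the B1/P/Rbf tumors, whereas the other B1/P tumors exceeded all of them. Its mean in B1/P/Rbf tumors, 0.0841 CPM, was no higher than that of 3 counts per library, the floor used here, so by the ratio of means the fall was at least 106-fold. For Wnt6 the fitted log2 fold change was -6.70 ± 1.38 (SE, edgeR adjusted p = 0.00386) in B1/P/Rbf and -4.59 ± 1.23 (SE, edgeR adjusted p = 0.0159) in P/Rbf tumors. It moved to -7.66 without B1/P/Rbf tumor 5 in the former and to -5.37 without P/Rbf tumor 1 in the latter, where the call was lost with limma-voom (adjusted p = 0.146), with only the compared groups fitted (adjusted p = 0.0663) and with a library-set term (adjusted p = 0.0619).

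Wnt10a had 2.13, 0.0809, 0.276, 1.07 and 0.487 CPM in the B1/P/Rbf tumors and 8.55, 1.21, 69.4, 7.78 and 16.4 CPM in the B1/P tumors. Wnt10a in the P/Rbf tumors was at 8.54, 0.883, 3.01, 0.474 and 0.102 CPM. B1/P tumor 3 was the highest, and the lowest B1/P tumor, again tumor 2, overlapped the B1/P/Rbf tumors. Wnt10a fell in B1/P/Rbf tumors (log2 fold change -4.67 ± 1.20 SE, edgeR adjusted p = 0.0141), by values that moved to -5.42 without B1/P/Rbf tumor 1 and -3.39 without B1/P tumor 3. Wnt10a was not called in P/Rbf tumors (log2 fold change -2.99 ± 1.10 SE, edgeR adjusted p = 0.0662). It passed the threshold without B1/P tumor 2 or P/Rbf tumor 1 (log2 fold change -4.13 to -3.29, adjusted p = 0.0254 to 0.039) and with DESeq2 (adjusted p = 0.0111). Wnt10b (chr15:98770712-98778150, minus strand), a ligand of early mammary development, had 0.312, 0.0809, 0.303, 0.0761 and 0.13 CPM in the B1/P/Rbf tumors and 1.65, 1.48, 5.5, 1.12 and 0.189 CPM in the B1/P tumors. Wnt10b in the P/Rbf tumors was at 0.374, 0.725, 0.278, 0.263 and 0.681 CPM, with B1/P tumor 3 highest and B1/P tumor 5 inside the B1/P/Rbf range. Wnt10b had a log2 fold change of -3.44 ± 0.76 (SE, edgeR adjusted p = 0.006) in B1/P/Rbf tumors and -2.10 ± 0.71 (SE, edgeR adjusted p = 0.0475) in P/Rbf tumors. Without B1/P tumor 3 the former became -2.60 and the latter -1.26. The P/Rbf call was lost without B1/P/Rbf tumor 1, 2, 3 or 5, B1/P tumor 1 or 3, P/Rbf tumor 1, 2, 3, 4 or 5 or normal gland 1, 2 or 3 (adjusted p = 0.0505 to 0.185), with limma-voom (adjusted p = 0.367), without the filter (adjusted p = 0.0739), with only the compared groups fitted (adjusted p = 0.108) and with a library-set term (adjusted p = 0.734).

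Wnt5b (chr6:119432531-119544347, minus strand), a relative of Wnt5a, fell in P/Rbf tumors. It had 20, 12.5, 21.8, 6.14 and 1.59 CPM in the B1/P/Rbf tumors and 21.8, 21.9, 7.92, 41.2 and 11.8 CPM in the B1/P tumors. Wnt5b in the P/Rbf tumors was at 1.98, 3.63, 0.607, 5.4 and 6.23 CPM, and every P/Rbf tumor was below every B1/P tumor. The fall in P/Rbf tumors (log2 fold change -2.55 ± 0.67 SE, edgeR adjusted p = 0.0141) was called in every alternative run. B1/P/Rbf tumors overlapped both other groups, and Wnt5b was not called there (log2 fold change -0.75 ± 0.63 SE, edgeR adjusted p = 0.441).

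The other ligands tested were Wnt2, Wnt2b, Wnt7a, Wnt9a, Wnt11 and Wnt16, and edgeR called none between tumor groups in the fit of all samples. Other fits called some in P/Rbf against B1/P tumors. Wnt9a became called without B1/P tumor 2 (log2 fold change 2.50, adjusted p = 0.0103), with DESeq2 (adjusted p = 0.0215) and with limma-voom (adjusted p = 0.0357), Wnt11 without B1/P tumor 4 or P/Rbf tumor 2 or 4 (log2 fold change 2.39 to 2.57, adjusted p = 0.0324 to 0.0439) and with DESeq2 (adjusted p = 0.0161), and Wnt2 without B1/P tumor 3 (log2 fold change -3.62, adjusted p = 0.0473). Wnt11 lay at 1.27 to 9.39 CPM in B1/P/Rbf, 0.653 to 5.41 CPM in B1/P and 1.5 to 33.4 CPM in P/Rbf tumors. Wnt9a lay at 2.47 to 13.7, 2.13 to 12 and 6.43 to 41.8 CPM in the same order. Wnt2, Wnt2b, Wnt7a and Wnt16 stayed below 5 CPM in every tumor. Wnt2 was highest in B1/P tumor 2, at 4.65 CPM, the tumor with the most fibroblast marker RNA (13732 CPM summed).

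**Figure D2:**
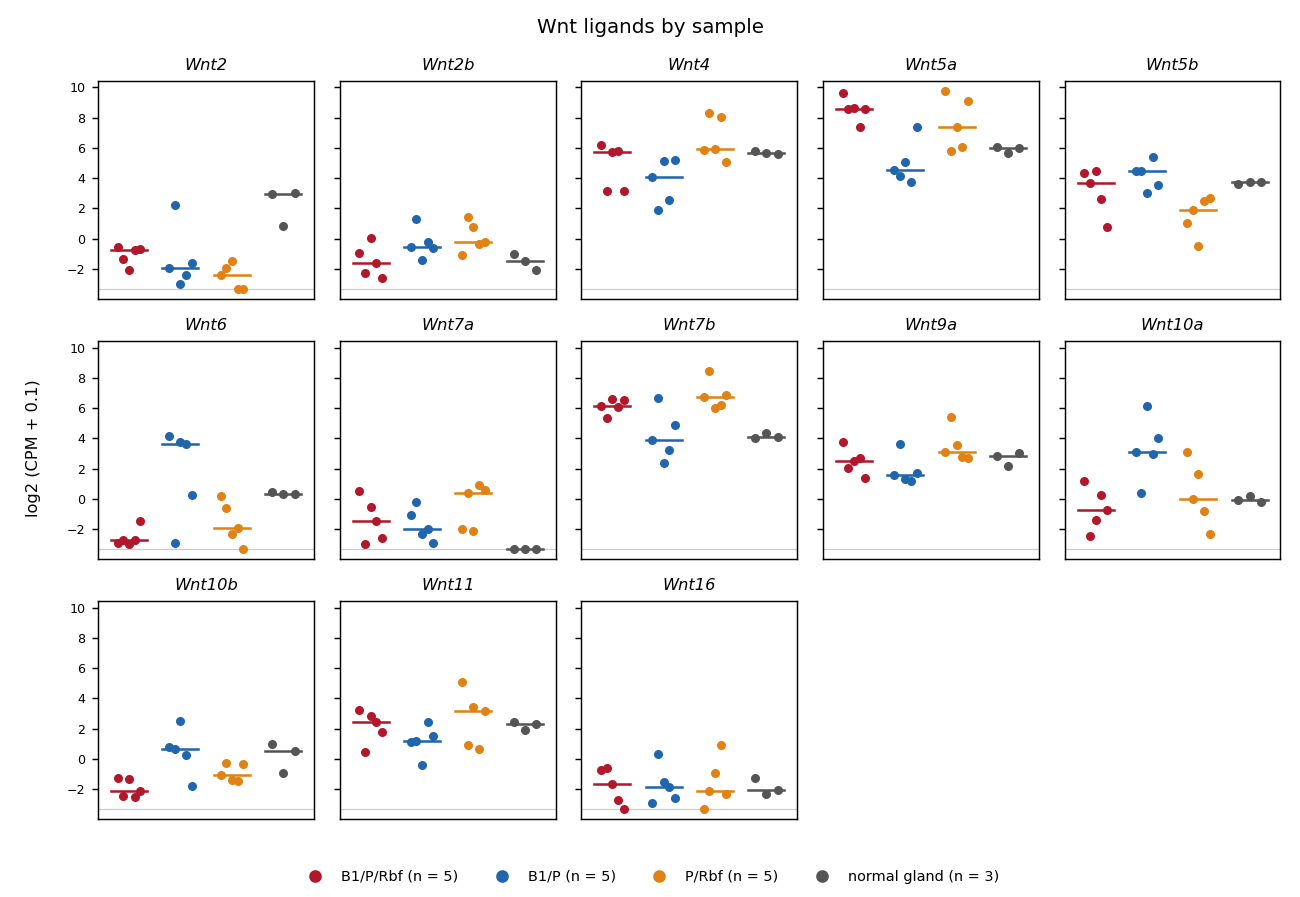
Wnt ligand levels in each sample, as log2(CPM + 0.1) on a shared vertical axis, with 1 point per tumor or gland, 1 panel per gene, a color per group, a short bar at each group's median and a grey line at 0 CPM. Wnt5a sits higher in all 5 B1/P/Rbf tumors than in all 5 B1/P tumors, whereas in Wnt6 B1/P tumor 2 lies with the T121 tumors at 0.0296 CPM.

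Among the Frizzled receptors 5 of 10 fell and 1 rose in B1/P/Rbf against B1/P tumors, and in P/Rbf against B1/P tumors 4 fell and 1 rose. Of all genes 9.29% fell and 7.36% rose in the former comparison, and 10.8% fell and 8.43% rose in the latter. Per kilobase Fzd7 was the leading Frizzled by mean in all tumor groups, at 25.5 CPM per kb in B1/P/Rbf, 137 in B1/P and 27.5 in P/Rbf tumors, and it was first in 5 of 5 B1/P tumors with 68.3% of Frizzled expression. Fzd7 was first in only 2 of 5 P/Rbf tumors, so its lead there is not beyond the spread. Fzd4 led in normal glands, at 42.7 CPM per kb.

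Fzd7 (chr1:59482424-59486955, plus strand), a receptor of basal mammary epithelium, had 28.9, 143, 93.8, 134 and 178 CPM in the B1/P/Rbf tumors and 501, 227, 340, 1584 and 461 CPM in the B1/P tumors. Fzd7 in the P/Rbf tumors was at 73.4, 202, 119, 150 and 78.9 CPM and in the normal glands at 65.8, 41.6 and 68.5 CPM. Every B1/P tumor was above every T121 tumor, and B1/P tumor 4 was the highest of all. The log2 fold change against B1/P was -2.43 ± 0.52 (SE, edgeR adjusted p = 0.00524) in B1/P/Rbf tumors and -2.32 ± 0.52 (SE, edgeR adjusted p = 0.00644) in P/Rbf tumors. Without B1/P tumor 4 these became -1.73 and -1.62, and both calls held in every alternative run. With a library-set term the B1/P/Rbf value became -1.62 (edgeR adjusted p = 0.0428). Summed basal markers were also higher in B1/P (450 to 2307 CPM) than in B1/P/Rbf tumors (68.5 to 354 CPM). In P/Rbf tumors they spanned 95.2 to 1494 CPM and overlapped the B1/P range. The part of basal markers in the Fzd7 differences was not tested.

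Fzd1, Fzd2 and Fzd3 fell with it in B1/P/Rbf tumors, each without overlap between the groups. Fzd1 (chr5:4753839-4758035, minus strand) had 16, 3.62, 19.2, 10.5 and 8.24 CPM in the B1/P/Rbf tumors and 22.2, 33.6, 255, 97.9 and 47.1 CPM in the B1/P tumors. Fzd1 in the P/Rbf tumors was at 13.6, 130, 18.9, 9.79 and 14.6 CPM, B1/P tumor 3 and P/Rbf tumor 2 being far above their groups. The fall in B1/P/Rbf tumors (log2 fold change -2.99 ± 0.79 SE, edgeR adjusted p = 0.0168) became -2.13 without B1/P tumor 3, where the call was lost (adjusted p = 0.0576). P/Rbf tumors were not called against B1/P (log2 fold change -1.29 ± 0.75 SE, edgeR adjusted p = 0.23). A call appeared for Fzd1 without P/Rbf tumor 2 (log2 fold change -2.68, adjusted p = 0.0106).

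Fzd2 (chr11:102604396-102608058, plus strand) had 15.9, 6.91, 8.58, 7.48 and 5.58 CPM in the B1/P/Rbf tumors and 30, 16, 32, 27.7 and 20.8 CPM in the B1/P tumors. Fzd2 in the P/Rbf tumors was at 11.6, 21, 9.09, 7.29 and 6.09 CPM. P/Rbf tumor 2 alone among the P/Rbf tumors reached the B1/P range. Its log2 fold change was -1.51 ± 0.36 (SE, edgeR adjusted p = 0.01) in B1/P/Rbf tumors, called in every alternative run, and -1.20 ± 0.36 (SE, edgeR adjusted p = 0.0286) in P/Rbf tumors, where the call was lost without B1/P tumor 1, 3 or 4 or P/Rbf tumor 1, 3, 4 or 5 (adjusted p = 0.0502 to 0.0692), with only the compared groups fitted (adjusted p = 0.0739) and with a library-set term (adjusted p = 0.125). Fzd3 (chr14:65192449-65262463, minus strand), which acts in planar cell polarity, had 4, 3.05, 7.8, 7.05 and 7.53 CPM in the B1/P/Rbf tumors and 40.8, 8.83, 18.3, 42.6 and 18.6 CPM in the B1/P tumors. Fzd3 in the P/Rbf tumors was at 9.06, 1.45, 13.9, 10.3 and 7.93 CPM. B1/P tumor 2 was the lowest of its group and lay within the P/Rbf range. Fzd3 had a log2 fold change of -2.13 ± 0.51 (SE, edgeR adjusted p = 0.00957) in B1/P/Rbf tumors, called in every alternative run. For P/Rbf it was -1.60 ± 0.50 (SE, edgeR adjusted p = 0.034), and the call was lost without B1/P tumor 1 or 4 or P/Rbf tumor 1 or 5 (adjusted p = 0.0641 to 0.083), with limma-voom (adjusted p = 0.0611), with only the compared groups fitted (adjusted p = 0.106) and with a library-set term (adjusted p = 0.0676).

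Fzd9 (chr5:135248938-135251230, minus strand) had the most negative fitted log2 fold change of the family in both comparisons with B1/P in the fit of all samples. Wnt6 lay at the floor in B1/P/Rbf tumors, so its order against Fzd9 there is not fixed. Fzd9 had 0.142, 0.189, 0.0276, 0.152 and 0.0325 CPM in the B1/P/Rbf tumors and 27.6, 0.0296, 19.8, 57.8 and 3.4 CPM in the B1/P tumors. Fzd9 in the P/Rbf tumors was at 0.316, 0.0315, 0.38, 0.0263 and 0.306 CPM, so B1/P tumor 2 was as low as the T121 tumors while the other B1/P tumors were above all of them. Fzd9 had a log2 fold change of -7.58 ± 1.32 (SE, edgeR adjusted p = 0.00153) in B1/P/Rbf and -6.65 ± 1.26 (SE, edgeR adjusted p = 0.00248) in P/Rbf tumors. Without B1/P tumor 4 these became -6.81 and -5.88. Both calls were lost with limma-voom, at adjusted p = 0.0616 and 0.0929. B1/P tumor 2 also had the lowest summed basal markers of its group, 450 CPM, and the highest fibroblast markers, and their part was not tested.

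Fzd10 and Fzd4 were the Frizzleds that rose. Fzd10 (chr5:128600844-128604093, plus strand) had 7.74, 30.7, 22.6, 11.5 and 27.8 CPM in the B1/P/Rbf tumors and 0.223, 0.237, 7.97, 2.13 and 5.39 CPM in the B1/P tumors. Fzd10 in the P/Rbf tumors was at 17, 3.97, 11.2, 15.9 and 15 CPM, and 4 of 5 B1/P/Rbf tumors exceeded every B1/P tumor. The rise in B1/P/Rbf tumors (log2 fold change 2.65 ± 0.79 SE, edgeR adjusted p = 0.0295) moved to 3.33 without B1/P tumor 3, and the call was lost without B1/P/Rbf tumor 2, 3 or 5 or B1/P tumor 4 (adjusted p = 0.0506 to 0.0634), with only the compared groups fitted (adjusted p = 0.0746) and with a library-set term (adjusted p = 0.0736). Fzd10 was not called in P/Rbf tumors (log2 fold change 1.98 ± 0.77 SE, edgeR adjusted p = 0.0787). Fzd10 became called without B1/P tumor 3 (log2 fold change 2.66, adjusted p = 0.0365), with DESeq2 (adjusted p = 0.0287) and with limma-voom (adjusted p = 0.0176). Fzd4 (chr7:89404355-89413134, plus strand), also the receptor for norrin, had 54.7, 23.4, 85.9, 51.5 and 20.2 CPM in the B1/P/Rbf tumors and 15.7, 34.3, 22, 13.3 and 41.2 CPM in the B1/P tumors. Fzd4 in the P/Rbf tumors was at 99.6, 113, 9.64, 259 and 63.3 CPM and in the normal glands at 259, 257 and 345 CPM. P/Rbf tumor 3 was below every B1/P tumor although the other P/Rbf tumors were above all of them. The rise over B1/P (log2 fold change 2.11 ± 0.60 SE, edgeR adjusted p = 0.0225) became 1.50 without P/Rbf tumor 4, and the call was lost without B1/P tumor 1 or 4 or P/Rbf tumor 4 (adjusted p = 0.0513 to 0.0725), with limma-voom (adjusted p = 0.108), with only the compared groups fitted (adjusted p = 0.0655) and with a library-set term (adjusted p = 0.162).

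Fzd5, Fzd6 and Fzd8 were not called between tumor groups by edgeR or in any alternative run. Fzd6 lay at 42.3 to 76.6 CPM in B1/P/Rbf tumors, 45.2 to 81.6 in B1/P tumors and 46.8 to 123 in P/Rbf tumors. Fzd5 lay at 14.6 to 52.4, 9.65 to 61.5 and 22.1 to 51.6 CPM, and Fzd8 at 9.51 to 27.5, 4.48 to 14.3 and 5.58 to 22.8 CPM in the same order.

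**Figure D3:**
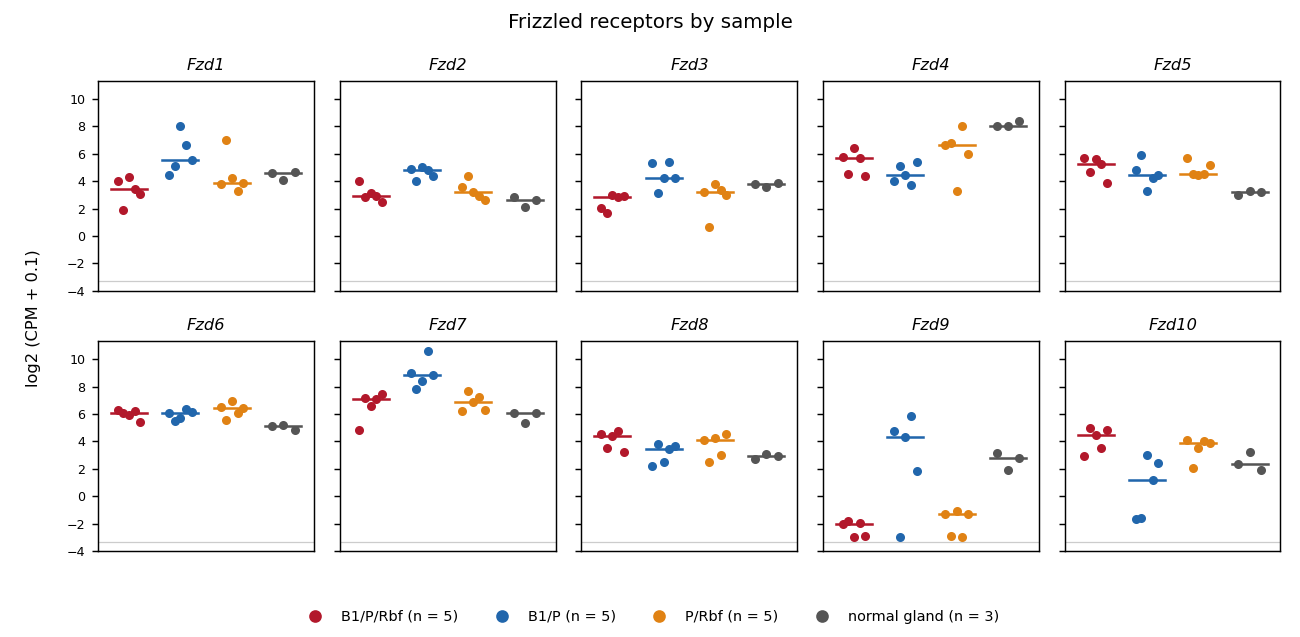
Frizzled levels in each sample, as log2(CPM + 0.1) on a shared vertical axis, with 1 point per tumor or gland, 1 panel per receptor, a color per group, a short bar at each group's median and a grey line at 0 CPM. All 5 B1/P tumors lie above all T121 tumors for Fzd7, and the 3 normal glands, at 257 to 345 CPM, are highest or level with the highest tumor for Fzd4.

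Of the 4 Sfrp genes, Sfrp5 rose in B1/P/Rbf and Sfrp4 fell in P/Rbf tumors against B1/P tumors. Sfrp1 and Sfrp2, which bind Wnts outside the cell, were not called between tumor groups by edgeR in the fit of all samples, though most T121 tumors were low. Sfrp1 had 71.7, 4.86, 5.79, 1.9 and 7.56 CPM in the B1/P/Rbf tumors and 258, 51.3, 161, 104 and 58.9 CPM in the B1/P tumors. Sfrp1 in the P/Rbf tumors was at 3.57, 70.8, 16, 12.5 and 2.28 CPM, with B1/P/Rbf tumor 1 and P/Rbf tumor 2 inside the B1/P range and the other T121 tumors below it. It was not called in B1/P/Rbf tumors (log2 fold change -2.79 ± 0.99 SE, edgeR adjusted p = 0.063). It passed the threshold without B1/P/Rbf tumor 1 or P/Rbf tumor 2 (log2 fold change -4.65 to -2.79, adjusted p = 0.0044 to 0.0373), with DESeq2 (adjusted p = 0.0102) and with limma-voom (adjusted p = 0.00477). Sfrp1 was not called in P/Rbf tumors (log2 fold change -2.59 ± 0.98 SE, edgeR adjusted p = 0.0725). A call appeared for Sfrp1 without B1/P/Rbf tumor 1 or P/Rbf tumor 2 (log2 fold change -3.88 to -2.59, adjusted p = 0.0155 to 0.0281), with DESeq2 (adjusted p = 0.0179) and with limma-voom (adjusted p = 0.00824). Sfrp2 had 21, 1.27, 0.855, 0.457 and 0.422 CPM in the B1/P/Rbf tumors and 8.58, 66.1, 42.7, 9.73 and 5.36 CPM in the B1/P tumors. Sfrp2 in the P/Rbf tumors was at 5.23, 20.5, 10.3, 6.76 and 1.8 CPM, with the same B1/P/Rbf tumor apart. It was not called in B1/P/Rbf tumors (log2 fold change -2.46 ± 1.06 SE, edgeR adjusted p = 0.122). Sfrp2 became called without B1/P/Rbf tumor 1 (log2 fold change -5.13, adjusted p = 0.0025), with DESeq2 (adjusted p = 0.0409) and with limma-voom (adjusted p = 0.0214). Summed fibroblast markers were 5399 CPM in B1/P/Rbf tumor 1 and 4381 CPM in P/Rbf tumor 2, the highest of their groups, and their part was not tested.

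Sfrp5 (chr19:42197971-42202252, minus strand) was low in all tumors, at 1.36, 0.809, 0, 0.279 and 0.195 CPM in the B1/P/Rbf tumors and 0, 0.0296, 0.0251, 0.0591 and 0.0315 CPM in the B1/P tumors. Sfrp5 in the P/Rbf tumors was at 0, 0.158, 0.0253, 0 and 0 CPM. Every B1/P tumor had at most 3 counts, the floor, and B1/P/Rbf tumors 1, 2, 4 and 5 were above all of them. The mean in B1/P/Rbf tumors was at least 5.97-fold higher than the floor of 3 counts per library allows for B1/P (edgeR adjusted p = 0.0216), a call lost without B1/P/Rbf tumor 1 (adjusted p = 0.0525), with limma-voom (adjusted p = 0.073) and with a library-set term (adjusted p = 0.0532). This bound leaned on B1/P/Rbf tumor 1, at 1.36 CPM, and would be lower without it, the fitted log2 fold change moving from 4.02 to 3.30. Sfrp4 (chr13:19623104-19632994, plus strand) had 3.38, 0.971, 0.744, 0.406 and 0.0649 CPM in the B1/P/Rbf tumors and 0.191, 9.27, 0.126, 0.858 and 2.84 CPM in the B1/P tumors. Sfrp4 in the P/Rbf tumors was at 0.403, 0.0315, 0.127, 0.158 and 0.238 CPM, B1/P tumor 2 being the highest. It fell in P/Rbf against B1/P tumors (log2 fold change -3.77 ± 1.14 SE, edgeR adjusted p = 0.0286), the log2 fold change becoming -2.37 without B1/P tumor 2, and the call was lost without B1/P tumor 2 or P/Rbf tumor 2, 3, 4 or 5 (adjusted p = 0.0543 to 0.103), with limma-voom (adjusted p = 0.288), with only the compared groups fitted (adjusted p = 0.0663) and with a library-set term (adjusted p = 0.121).

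Of the Dkk genes, Dkk2 led in B1/P/Rbf and Dkk3 in B1/P tumors. Dkk2, a ligand of Lrp5 and Lrp6, made up 90.4% of Dkk expression per kilobase in B1/P/Rbf tumors and was first in 5 of 5, while Dkk3, a divergent member of the family, made up 95.5% in B1/P tumors and was first in 5 of 5. Dkk2 was first in 2 of 5 P/Rbf tumors and Dkk3 in 3 of 5. Dkk2 (chr3:132085292-132180304, plus strand) had 300, 20.3, 58.6, 54.9 and 9.09 CPM in the B1/P/Rbf tumors and 0.381, 1.48, 4.17, 1.24 and 2.55 CPM in the B1/P tumors. Dkk2 in the P/Rbf tumors was at 57.3, 2.96, 6.71, 2.32 and 33.6 CPM and in the normal glands at 3.01, 0.524 and 1.35 CPM. All 5 B1/P/Rbf tumors were above all B1/P tumors, tumor 1 by far the most, and P/Rbf tumors spread over the gap. Dkk2 had a log2 fold change over B1/P of 5.49 ± 1.14 (SE, edgeR adjusted p = 0.00421) in B1/P/Rbf tumors, called in every alternative run, and 3.38 ± 1.04 (SE, edgeR adjusted p = 0.0313) in P/Rbf tumors. The former moved to 4.18 without B1/P/Rbf tumor 1. The latter moved to 2.59 without P/Rbf tumor 1, and its call was lost without B1/P tumor 1, 2, 4 or 5 or P/Rbf tumor 1 or 5 (adjusted p = 0.0516 to 0.0805), with limma-voom (adjusted p = 0.157), with only the compared groups fitted (adjusted p = 0.0514) and with a library-set term (adjusted p = 0.181).

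Dkk3 (chr7:112116017-112159057, minus strand) had 14.9, 2.64, 13.5, 5.78 and 5.65 CPM in the B1/P/Rbf tumors and 11.5, 42.6, 69.5, 13.2 and 55.9 CPM in the B1/P tumors. Dkk3 in the P/Rbf tumors was at 5.44, 18, 23.8, 11.5 and 8.17 CPM. B1/P tumors 2, 3 and 5 were above all B1/P/Rbf tumors, whereas tumors 1 and 4 lay within their range. It fell in B1/P/Rbf tumors (log2 fold change -2.18 ± 0.57 SE, edgeR adjusted p = 0.0158), a call held in every alternative run. Dkk3 was not called in P/Rbf tumors (log2 fold change -1.52 ± 0.56 SE, edgeR adjusted p = 0.0646). It passed the threshold without B1/P tumor 1 or 4 or P/Rbf tumor 3 (log2 fold change -1.84 to -1.74, adjusted p = 0.0376 to 0.0452) and with DESeq2 (adjusted p = 0.0275).

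Of the R-spondin receptors, Lgr4 and Lgr6 fell in B1/P/Rbf tumors and Lgr6 in P/Rbf tumors. Lgr6 (chr1:134983301-135105276, minus strand), known as a marker of hair follicle stem cells, had 0.993, 0.54, 2.67, 3.4 and 3.25 CPM in the B1/P/Rbf tumors and 58.2, 155, 201, 53.5 and 84.4 CPM in the B1/P tumors. Lgr6 in the P/Rbf tumors was at 0.92, 2.9, 3.85, 0.263 and 2.35 CPM and in the normal glands at 15, 15.4 and 18.1 CPM. The highest T121 tumor, at 3.85 CPM, was below every gland, and the glands were below every B1/P tumor. The log2 fold change was -5.67 ± 0.71 (SE, edgeR adjusted p = 0.000196) in B1/P/Rbf tumors and -5.74 ± 0.71 (SE, edgeR adjusted p = 0.000194) in P/Rbf tumors, and both calls held in every alternative run. Per kilobase Lgr6 was first of the 3 in 3 of 5 B1/P tumors and in none of the T121 tumors.

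Lgr4 (chr2:109917647-110014257, plus strand), the broadly expressed member, had 7.46, 12.1, 20.5, 9.51 and 4.58 CPM in the B1/P/Rbf tumors and 112, 56.6, 102, 92.3 and 60.2 CPM in the B1/P tumors. Lgr4 in the P/Rbf tumors was at 13.3, 51.6, 28.4, 72.1 and 27.7 CPM and in the normal glands at 37.4, 29.2 and 39.8 CPM. The B1/P/Rbf tumors were below every B1/P tumor and every gland, whereas P/Rbf tumor 4 lay within the B1/P range. Lgr4 fell in B1/P/Rbf tumors (log2 fold change -2.97 ± 0.44 SE, edgeR adjusted p = 0.000616), called in every alternative run. Lgr4 was not called in P/Rbf tumors (log2 fold change -1.13 ± 0.42 SE, edgeR adjusted p = 0.0644). A call appeared for Lgr4 without B1/P/Rbf tumor 3 or P/Rbf tumor 4 (log2 fold change -1.49 to -1.13, adjusted p = 0.0247 to 0.0489), with DESeq2 (adjusted p = 0.038) and with limma-voom (adjusted p = 0.0181). Between the T121 groups it gave the lowest adjusted p of the family (log2 fold change -1.83 ± 0.42 SE, edgeR adjusted p = 0.0707), with 4 of 5 B1/P/Rbf tumors below every P/Rbf tumor, and it was called without B1/P/Rbf tumor 3 or P/Rbf tumor 1 (log2 fold change -2.20 to -2.07, adjusted p = 0.0398 to 0.0458) and with DESeq2 (adjusted p = 0.00201).

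Lgr5, a stem cell marker in many epithelia, spread widely within groups, with 1.73, 22.7, 60.8, 0.355 and 0.39 CPM in the B1/P/Rbf tumors and 143, 1.3, 32.6, 34.3 and 12.3 CPM in the B1/P tumors. Lgr5 in the P/Rbf tumors was at 0.633, 9.11, 3.44, 3.24 and 9.6 CPM. B1/P tumor 2 and B1/P/Rbf tumors 1, 4 and 5 were all below 2 CPM, as was P/Rbf tumor 1. It was called in neither B1/P/Rbf (log2 fold change -1.38 ± 1.20 SE, edgeR adjusted p = 0.462) nor P/Rbf tumors (log2 fold change -3.10 ± 1.28 SE, edgeR adjusted p = 0.0961), the latter being called with DESeq2 (adjusted p = 0.0201). Both values leaned on B1/P tumor 1, at 143 CPM, and that of B1/P/Rbf also on B1/P/Rbf tumor 3, at 60.8 CPM.

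Axin2 (chr11:108920349-108950783, plus strand), a widely used transcriptional readout of β-catenin signalling, had 1.82, 3.62, 4.33, 2.26 and 5.42 CPM in the B1/P/Rbf tumors and 6.58, 3.7, 18, 14.5 and 15.6 CPM in the B1/P tumors. Axin2 in the P/Rbf tumors was at 3.25, 8.52, 2.1, 3.16 and 3.54 CPM and in the normal glands at 14.9, 12.9 and 15.3 CPM. B1/P tumors 3, 4 and 5 stood with the normal glands, and B1/P tumors 1 and 2 nearer to the T121 tumors, so the groups overlap. Axin2 had a log2 fold change against B1/P of -1.74 ± 0.47 (SE, edgeR adjusted p = 0.0176) in B1/P/Rbf tumors and -1.50 ± 0.46 (SE, edgeR adjusted p = 0.0316) in P/Rbf tumors. The former call was lost only with a library-set term (adjusted p = 0.0744), and the latter without B1/P tumor 3, 4 or 5 or P/Rbf tumor 1, 3, 4 or 5 (adjusted p = 0.0593 to 0.0763), with limma-voom (adjusted p = 0.0917) and with only the compared groups fitted (adjusted p = 0.102). All 10 T121 tumors were below all 3 normal glands.

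**Figure D4:**
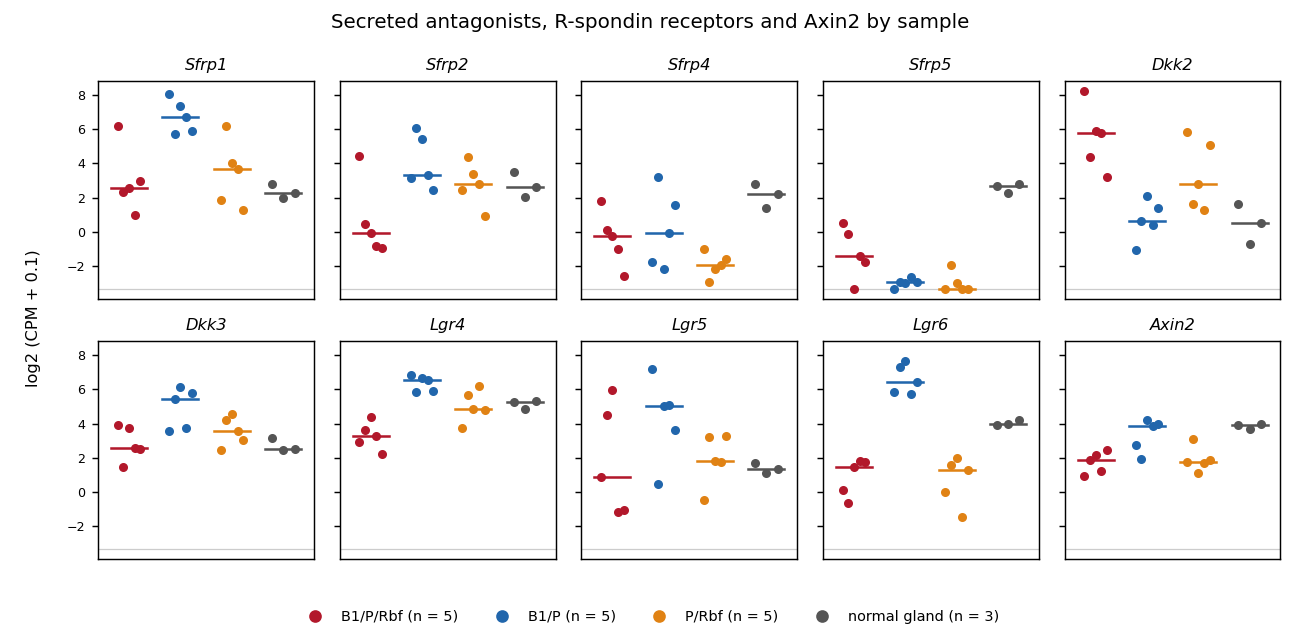
Sfrp, Dkk, Lgr and Axin2 levels in each sample, as log2(CPM + 0.1) on a shared vertical axis, with 1 point per tumor or gland, 1 panel per gene, a color per group, a short bar at each group's median and a grey line at 0 CPM. Lgr6 separates all B1/P tumors, at 53.5 to 201 CPM, from all T121 tumors, at most 3.85 CPM, and Dkk2 separates B1/P/Rbf from B1/P tumors in the other direction.

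Between the T121 groups, the B1/P/Rbf tumors carry the floxed Brca1 gene in addition. By the assumed library sets all B1/P/Rbf tumors lie in set 1 and all P/Rbf tumors in set 2, so genotype and set cannot be told apart here. The median log2 fold change was -0.54 over the 33 genes and -0.01 over all genes, and 11 of the 33 were positive. After Lgr4 the smallest adjusted p belonged to Sfrp5 (edgeR adjusted p = 0.119), which DESeq2 called (adjusted p = 0.0168). Its mean was 0.529 CPM in B1/P/Rbf tumors, at least 6.04-fold the floor of 3 counts per library under which the P/Rbf mean lay. That mean leaned on B1/P/Rbf tumor 1, at 1.36 CPM, and the limit would be lower without it. Wnt5b (log2 fold change 1.80 ± 0.65 SE, edgeR adjusted p = 0.18) and Wnt4 (log2 fold change -1.86 ± 0.76 SE, edgeR adjusted p = 0.236) were called in no alternative run. The log2 fold change of Fzd7 was -0.11 ± 0.50 (SE, edgeR adjusted p = 0.949) and that of Lgr6 was 0.08 ± 0.59 (SE, edgeR adjusted p = 0.974). A p that misses the threshold does not show that the groups are alike.

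Against the normal gland, 5 genes rose and 9 fell in B1/P/Rbf tumors (background 17.1% and 20.0%). In B1/P tumors 9 rose and 2 fell (background 16.8% and 16.9%). P/Rbf tumors gave 5 that rose and 6 that fell (background 17.4% and 20.3%). The 3 comparisons share the same 3 glands. Without gland 3 the calls numbered 9 in B1/P/Rbf and 5 in B1/P tumors, and without gland 2 they numbered 7 in B1/P tumors. The glands were rich in fat and muscle RNA, as given above, and the part of this in the differences was not tested. Fzd5 and Fzd6 were higher than the gland in every tumor group, with log2 fold changes of 2.03 ± 0.54 (SE, edgeR adjusted p = 0.00744), 1.65 ± 0.53 (SE, edgeR adjusted p = 0.0236) and 1.82 ± 0.53 (SE, edgeR adjusted p = 0.0132) for Fzd5 with the tumor groups in the order B1/P/Rbf, B1/P, P/Rbf. For Fzd6 they were 0.97 ± 0.29 (SE, edgeR adjusted p = 0.0142), 0.96 ± 0.29 (SE, edgeR adjusted p = 0.0172) and 1.32 ± 0.29 (SE, edgeR adjusted p = 0.00207). Wnt7a had 0 counts in the 3 glands and at most 1.82 CPM in tumors, which made its mean at least 4.22-fold, 2.71-fold and 8.8-fold higher in the same order against the floor of 3 counts per library. Wnt7a passed the filter on low counts only through tumors, so its rise over the gland, counted above, was built in by the filter. The B1/P/Rbf limit leaned on tumor 1 (1.3 CPM) and the B1/P limit on tumor 2 (0.77 CPM), and each would be lower without that tumor.

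Of the genes lower than in the gland, Fzd4 fell in B1/P/Rbf (log2 fold change -2.60 ± 0.66 SE, edgeR adjusted p = 0.00544) and B1/P tumors (log2 fold change -3.50 ± 0.68 SE, edgeR adjusted p = 0.000814) and was not called in P/Rbf tumors (log2 fold change -1.40 ± 0.65 SE, edgeR adjusted p = 0.102). Sfrp5 was at 6.29, 4.65 and 6.91 CPM in the glands and fell in all 3 tumor groups. Its log2 fold change was -3.48 ± 1.05 (SE, edgeR adjusted p = 0.0152) in B1/P/Rbf tumors. The means of the other groups were under the floor, so the fall was at least 67.2-fold in B1/P (edgeR adjusted p = 0.00028) and at least 67.9-fold in P/Rbf tumors (edgeR adjusted p = 0.000266). Wnt2, at 7.62, 1.67 and 8.02 CPM in the glands, fell in B1/P/Rbf (log2 fold change -3.84 ± 1.29 SE, edgeR adjusted p = 0.027) and P/Rbf tumors (log2 fold change -5.79 ± 1.41 SE, edgeR adjusted p = 0.0039). Fzd9 fell in B1/P/Rbf (log2 fold change -5.84 ± 1.28 SE, edgeR adjusted p = 0.00189) and P/Rbf tumors (log2 fold change -4.91 ± 1.22 SE, edgeR adjusted p = 0.00455), and Sfrp4 in P/Rbf tumors (log2 fold change -4.56 ± 1.23 SE, edgeR adjusted p = 0.00764).

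Lgr6 was higher than the gland in B1/P tumors (log2 fold change 2.77 ± 0.76 SE, edgeR adjusted p = 0.00962) and lower in B1/P/Rbf (log2 fold change -2.90 ± 0.67 SE, edgeR adjusted p = 0.00285) and P/Rbf tumors (log2 fold change -2.97 ± 0.67 SE, edgeR adjusted p = 0.0023). Called higher in B1/P tumors were also Fzd7 (log2 fold change 3.41 ± 0.68 SE, edgeR adjusted p = 0.00103), Sfrp1 (log2 fold change 4.62 ± 1.35 SE, edgeR adjusted p = 0.0146), Wnt10a (log2 fold change 4.54 ± 1.49 SE, edgeR adjusted p = 0.0264), Dkk3 (log2 fold change 2.52 ± 0.71 SE, edgeR adjusted p = 0.0115) and Fzd2 (log2 fold change 2.12 ± 0.45 SE, edgeR adjusted p = 0.00179). Dkk2 rose above the gland in B1/P/Rbf (log2 fold change 5.77 ± 1.47 SE, edgeR adjusted p = 0.00546) and P/Rbf tumors (log2 fold change 3.66 ± 1.31 SE, edgeR adjusted p = 0.0364), Wnt5a in B1/P/Rbf tumors (log2 fold change 2.81 ± 1.00 SE, edgeR adjusted p = 0.0353) and Wnt7b in P/Rbf tumors (log2 fold change 2.99 ± 0.85 SE, edgeR adjusted p = 0.0106). Axin2 fell below it in B1/P/Rbf (log2 fold change -2.04 ± 0.51 SE, edgeR adjusted p = 0.00521) and P/Rbf tumors (log2 fold change -1.80 ± 0.51 SE, edgeR adjusted p = 0.0109). Wnt6 (at least 14-fold by the floor, edgeR adjusted p = 0.0312), Wnt10b (log2 fold change -2.73 ± 0.80 SE, edgeR adjusted p = 0.013) and Lgr4 (log2 fold change -1.71 ± 0.47 SE, edgeR adjusted p = 0.00848) fell below it in B1/P/Rbf tumors.

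With 3 glands, some of these calls rest on single samples. In B1/P/Rbf tumors the call of Wnt5a was lost without B1/P/Rbf tumor 1 or normal gland 1, 2 or 3 (adjusted p = 0.0654 to 0.0997). That of Wnt2 was lost without B1/P/Rbf tumor 2 or 3 or normal gland 1 or 3 (adjusted p = 0.055 to 0.0778). For Wnt6 it was lost without B1/P/Rbf tumor 1, 2, 3 or 4 or normal gland 1, 2 or 3 (adjusted p = 0.0614 to 0.0662), with limma-voom (adjusted p = 0.196) and with a library-set term (adjusted p = 0.161). Wnt10b lost it without normal gland 1 (adjusted p = 0.0679) and with limma-voom (adjusted p = 0.115), which kept 11 of the 14 B1/P/Rbf calls. Wnt7a lost it without normal gland 3 (adjusted p = 0.0515) and with a library-set term (adjusted p = 0.2), and Fzd6 without normal gland 3 (adjusted p = 0.0632) and with the log2 CPM filter (adjusted p = 0.0682). In B1/P tumors the call of Wnt7a was lost without B1/P tumor 2 or normal gland 1, 2 or 3 (adjusted p = 0.0541 to 0.0817), with limma-voom (adjusted p = 0.107) and with a library-set term (adjusted p = 0.148). That of Wnt10a, whose log2 fold change leaned on B1/P tumor 3 (69.4 CPM), was lost without B1/P tumor 3 or normal gland 1, 2 or 3 (adjusted p = 0.0666 to 0.0939) and with a library-set term (adjusted p = 0.0883). Fzd5 lost it without B1/P tumor 2 or normal gland 1, 2 or 3 (adjusted p = 0.0571 to 0.0832) and with a library-set term (adjusted p = 0.163), and Fzd6 without normal gland 3 (adjusted p = 0.0818) and with the log2 CPM filter (adjusted p = 0.0661). Sfrp1 lost it without normal gland 2 or 3 (adjusted p = 0.0588 to 0.06) and with a library-set term (adjusted p = 0.0511), and Dkk3 without normal gland 3 (adjusted p = 0.0541). In P/Rbf tumors the call of Dkk2, whose log2 fold change leaned on P/Rbf tumor 1 (57.3 CPM), was lost without P/Rbf tumor 1 or 5 or normal gland 1, 2 or 3 (adjusted p = 0.0545 to 0.114), with limma-voom (adjusted p = 0.105) and with only the compared groups fitted (adjusted p = 0.0534). That of Fzd5 was lost without normal gland 1 (adjusted p = 0.0516), and that of Fzd9 with limma-voom (adjusted p = 0.1).

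With the library-set term 8 of the 14 B1/P/Rbf calls against the gland were lost. Besides Wnt6 and Wnt7a, these were Axin2 (adjusted p = 0.268), Sfrp5 (adjusted p = 0.544), Fzd4 (adjusted p = 0.144), Fzd5 (adjusted p = 0.257), Fzd9 (adjusted p = 0.099) and Lgr4 (adjusted p = 0.093). Of the 11 B1/P calls 5 were lost with this term, namely those of Wnt7a, Wnt10a, Sfrp1, Fzd5 and Lgr6 (adjusted p = 0.0703 for Lgr6), and of the P/Rbf calls none. All P/Rbf tumors and all glands lie in the same assumed set. The term therefore drops out of their comparison and is no check of the P/Rbf calls. The term moved values both ways, and it is estimated only from differences among the B1/P tumors, the one group in both sets. The log2 fold change of Axin2 in B1/P/Rbf tumors became -1.36 and that of Sfrp5 -2.35, whereas Wnt2 moved to -7.19, Wnt5a to 4.66, Wnt10b to -4.86 and Lgr6 to -3.90, each still called. In B1/P tumors Fzd7 moved to 4.12, still called.

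Single samples moved some gland values by over 1.5-fold without ending the call. For B1/P/Rbf tumors Dkk2 moved to 4.46 without B1/P/Rbf tumor 1 and 6.56 without normal gland 1 and Sfrp5 to -4.19 without B1/P/Rbf tumor 1. Fzd7 in B1/P tumors moved to 2.70 without B1/P tumor 4. In P/Rbf tumors Wnt2 moved to -6.49 without P/Rbf tumor 3 and Wnt7b to 2.31 without P/Rbf tumor 2.

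The rest of the pathway was read from lists by role, in which a gene passes the same filter and test as above. The shares of all genes called were those given above, 7.36% higher and 9.29% lower in B1/P/Rbf and 8.43% higher and 10.8% lower in P/Rbf tumors against B1/P. With lists of 5 to 14 genes, many of these counts moved with single samples. Of the genes for Wnt secretion and release, 1 of 5 rose and 2 fell in B1/P/Rbf against B1/P tumors, with 0 and 1 in P/Rbf against B1/P tumors. Their median log2 fold change was -1.54 and -0.74 in these comparisons, where the median of all genes was -0.06 and -0.05 as above. Gpc3, a glypican that binds Wnts at the surface, had 4.25, 1.78, 0.993, 5.38 and 1.1 CPM in the B1/P/Rbf tumors and 66.2, 16.6, 66.3, 138 and 41 CPM in the B1/P tumors. Gpc3 in the P/Rbf tumors was at 0.0288, 1.96, 4.07, 1.08 and 0.374 CPM. It fell in B1/P/Rbf (log2 fold change -4.60 ± 0.89 SE, edgeR adjusted p = 0.00275) and P/Rbf tumors (log2 fold change -5.44 ± 0.93 SE, edgeR adjusted p = 0.00136), every B1/P tumor being above every T121 tumor. The P/Rbf value moved to -6.25 without P/Rbf tumor 3. The rise was Wls, the carrier of Wnts to the surface, at 174, 78.5, 3022, 62.2 and 125 CPM in B1/P/Rbf tumors and 44.4, 158, 96.9, 47.4 and 68.7 CPM in B1/P tumors (log2 fold change 3.06 ± 0.91 SE, edgeR adjusted p = 0.0293). The level in B1/P/Rbf tumor 3 stood far above all others, without it the log2 fold change was 0.40, and the call was lost without B1/P/Rbf tumor 3 or B1/P tumor 1, 3, 4 or 5 (adjusted p = 0.0536 to 0.55), with limma-voom (adjusted p = 0.218), with only the compared groups fitted (adjusted p = 0.0859) and with a library-set term (adjusted p = 0.112). Notum, a Wnt-inactivating enzyme, fell (log2 fold change -2.05 ± 0.65 SE, edgeR adjusted p = 0.0395, moving to -2.72 without B1/P/Rbf tumor 4), a call lost without B1/P/Rbf tumor 1, 2, 3 or 5, B1/P tumor 2, 3 or 4 or normal gland 1 or 3 (adjusted p = 0.052 to 0.108), with limma-voom (adjusted p = 0.0548), without the filter (adjusted p = 0.0665) and with only the compared groups fitted (adjusted p = 0.0618). The 3 B1/P/Rbf calls of this list became 1 without B1/P/Rbf tumor 3 or without B1/P tumor 3 or 4.

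Coreceptors and alternative receptors gave 0 of 8 higher and 3 lower in B1/P/Rbf, and 1 higher and 4 lower in P/Rbf tumors, with list medians of -0.48 and -0.80 on the log2 scale. The 5 P/Rbf calls became 3 with the library-set term. Lrp6, the main β-catenin coreceptor, went from 353 ± 127 CPM in B1/P to 174 ± 20.2 CPM in B1/P/Rbf (log2 fold change -1.02 ± 0.24 SE, edgeR adjusted p = 0.00852) and 155 ± 38.7 CPM in P/Rbf tumors (log2 fold change -1.19 ± 0.24 SE, edgeR adjusted p = 0.00358), the B1/P/Rbf call being lost with a library-set term (adjusted p = 0.0566). Ptk7, a receptor-like protein of planar cell polarity, fell in both (log2 fold change -0.96 ± 0.24 SE, edgeR adjusted p = 0.0111 and log2 fold change -1.15 ± 0.24 SE, edgeR adjusted p = 0.00392). Reck, a membrane partner in Wnt7 signalling, fell in both as well (log2 fold change -2.33 ± 0.56 SE, edgeR adjusted p = 0.00936 and log2 fold change -2.84 ± 0.57 SE, edgeR adjusted p = 0.00336). For Reck these became -1.60 and -2.10 without B1/P tumor 3. Ror2, a receptor for Wnt5a, had 50, 43.5, 46.8, 38.3 and 77.5 CPM in the B1/P/Rbf tumors and 28, 7.32, 20, 14.2 and 35.6 CPM in the B1/P tumors. Ror2 in the P/Rbf tumors was at 71.8, 409, 27.7, 193 and 50.1 CPM. It was higher in P/Rbf tumors (log2 fold change 2.84 ± 0.61 SE, edgeR adjusted p = 0.00498), a value that moved to 2.03 without P/Rbf tumor 2 and a call lost only with a library-set term (adjusted p = 0.0755). In B1/P/Rbf tumors Ror2 was not called (log2 fold change 1.29 ± 0.58 SE, edgeR adjusted p = 0.138) although every value was above every B1/P tumor.

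R-spondins and the ligases they act on gave 0 of 5 higher and 3 lower in B1/P/Rbf and 0 higher and 2 lower in P/Rbf tumors, with medians of -2.25 and -1.10. The 3 calls became 1 with the library-set term or only the compared groups, 1 without B1/P/Rbf tumor 1 or 3 or B1/P tumor 1 or 4, and 0 without B1/P/Rbf tumor 2. The 2 calls became 1 with only the compared groups and 0 with the library-set term or without P/Rbf tumor 1, and 1 when any of 10 other single samples was left out. Rspo3, an Lgr ligand, had 0.34, 0, 0.0276, 0 and 0 CPM in the B1/P/Rbf tumors and 0.0954, 3.7, 1.63, 0.946 and 2.55 CPM in the B1/P tumors. Rspo3 in the P/Rbf tumors was at 0.0288, 0.0315, 0.304, 0 and 0 CPM. The means of both T121 groups lay under the floor of 3 counts per library, so Rspo3 fell at least 21.2-fold in B1/P/Rbf (edgeR adjusted p = 0.0243) and at least 20.4-fold in P/Rbf tumors (edgeR adjusted p = 0.023). The B1/P/Rbf call of Rspo3 was lost without B1/P/Rbf tumor 2, 3 or 5 (adjusted p = 0.0515 to 0.0576), and the P/Rbf call without P/Rbf tumor 1 (adjusted p = 0.0504) and with a library-set term (adjusted p = 0.0618). Rnf43, a ligase that removes Frizzleds, fell in B1/P/Rbf tumors (log2 fold change -2.25 ± 0.67 SE, edgeR adjusted p = 0.0303), a call lost without B1/P/Rbf tumor 1, 2, 3 or 5 or B1/P tumor 1 or 4 (adjusted p = 0.0531 to 0.0688), with limma-voom (adjusted p = 0.0644), with only the compared groups fitted (adjusted p = 0.0569) and with a library-set term (adjusted p = 0.0875).

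Among other modulators 2 of 13 rose and 4 fell in B1/P/Rbf, and 1 rose and 2 fell in P/Rbf tumors, with medians of -1.25 and -0.98. The 6 B1/P/Rbf calls became 2 without B1/P/Rbf tumor 2, and 3 without B1/P/Rbf tumor 3 or 4, with the library-set term or with only the compared groups. The 3 P/Rbf calls became 1 with the library-set term and 6 with DESeq2. Dkkl1, a Dickkopf-like secreted protein, had 7.29, 9.09, 48.6, 10.2 and 157 CPM in the B1/P/Rbf tumors and 0.858, 0.0889, 0.628, 0.591 and 1.67 CPM in the B1/P tumors. Dkkl1 in the P/Rbf tumors was at 16.9, 4.04, 8.53, 12.8 and 19.2 CPM, all T121 tumors being above all B1/P tumors (log2 fold change 5.92 ± 0.95 SE, edgeR adjusted p = 0.000968 for B1/P/Rbf and log2 fold change 4.00 ± 0.88 SE, edgeR adjusted p = 0.00552 for P/Rbf). The B1/P/Rbf value moved to 4.61 without B1/P/Rbf tumor 5. The P/Rbf call of Dkkl1 was lost with a library-set term (adjusted p = 0.0923). Dact2, a Dishevelled-binding protein, fell in both (log2 fold change -2.45 ± 0.45 SE, edgeR adjusted p = 0.00213 and log2 fold change -3.00 ± 0.46 SE, edgeR adjusted p = 0.000804). The antagonists Sostdc1 (log2 fold change -5.97 ± 1.83 SE, edgeR adjusted p = 0.0337) and Wif1 (log2 fold change -4.05 ± 1.28 SE, edgeR adjusted p = 0.038) fell in B1/P/Rbf tumors. Sostdc1 moved to -7.11 without B1/P/Rbf tumor 5 and Wif1 to -2.19 without B1/P tumor 3. The Sostdc1 call was lost without B1/P/Rbf tumor 1, 2, 3 or 4 or B1/P tumor 3 or 5 (adjusted p = 0.0554 to 0.0736), with limma-voom (adjusted p = 0.227) and with a library-set term (adjusted p = 0.0607), and the Wif1 call without B1/P/Rbf tumor 1, 2, 3 or 4, B1/P tumor 3 or normal gland 3 (adjusted p = 0.0512 to 0.191), with limma-voom (adjusted p = 0.0638) and with only the compared groups fitted (adjusted p = 0.0795).

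Of 14 cytoplasmic genes 1 rose and 0 fell in B1/P/Rbf tumors, namely Ctnnb1, the gene for β-catenin, from 928 ± 173 CPM to 1506 ± 407 CPM (log2 fold change 0.70 ± 0.22 SE, edgeR adjusted p = 0.0376), a call lost without B1/P/Rbf tumor 2, 3 or 5 or B1/P tumor 1, 2, 3 or 5 (adjusted p = 0.0542 to 0.108), with limma-voom (adjusted p = 0.0664), without the filter (adjusted p = 0.0537), with only the compared groups fitted (adjusted p = 0.0611) and with a library-set term (adjusted p = 0.0645). In P/Rbf tumors 2 rose and 2 fell. The falls were Apc2, a relative of the tumor suppressor Apc (log2 fold change -3.73 ± 0.94 SE, edgeR adjusted p = 0.0123), and Btrc, a ligase subunit that degrades β-catenin (log2 fold change -1.14 ± 0.28 SE, edgeR adjusted p = 0.011). Apc2 moved to -1.99 without B1/P tumor 3 and -4.38 without P/Rbf tumor 2, and its call was lost without B1/P tumor 3 (adjusted p = 0.0604), with limma-voom (adjusted p = 0.0846), with only the compared groups fitted (adjusted p = 0.0639) and with a library-set term (adjusted p = 0.578). The Btrc call was lost with only the compared groups fitted (adjusted p = 0.0522) and with a library-set term (adjusted p = 0.213). The B1/P/Rbf count became 3 with DESeq2 or without P/Rbf tumor 4, and 2 without TMM, P/Rbf tumor 1 or B1/P/Rbf tumor 4. The 4 P/Rbf calls became 0 with the library-set term or only the compared groups, 1 without B1/P tumor 3, and 2 without B1/P tumor 2 or 4 or P/Rbf tumor 2 or 5, or without TMM. The list medians were 0.00 and 0.11. Of 12 nuclear genes 0 rose and 3 fell in each comparison (medians -0.59 and -0.80), and these were the factors Tcf7, Tcf7l1 and Tcf7l2. The 3 P/Rbf calls became 1 with the library-set term, and 5 with DESeq2 or without B1/P/Rbf tumor 1. Tcf7 had 15, 3.1, 7.17, 9.33 and 7.14 CPM in the B1/P/Rbf tumors and 35.4, 36.3, 55.2, 166 and 55.5 CPM in the B1/P tumors. Tcf7 in the P/Rbf tumors was at 15.6, 17.1, 2.05, 5.63 and 5.72 CPM and in the normal glands at 93.8, 128 and 79.4 CPM, every B1/P tumor being above every T121 tumor (log2 fold change -3.06 ± 0.58 SE, edgeR adjusted p = 0.00257 for B1/P/Rbf and log2 fold change -2.92 ± 0.58 SE, edgeR adjusted p = 0.0033 for P/Rbf). Without B1/P tumor 4 these became -2.45 and -2.31. The log2 fold change of Tcf7l2 was -1.38 ± 0.29 (SE, edgeR adjusted p = 0.00407) in B1/P/Rbf and -1.17 ± 0.28 (SE, edgeR adjusted p = 0.0097) in P/Rbf tumors, the latter call being lost with a library-set term (adjusted p = 0.132). Lef1 was at most 1.07 CPM in 14 of 15 tumors, 6.51 CPM in B1/P tumor 4 and 32.7, 46.5 and 30.2 CPM in the glands, whose lymphocyte markers, 8 of 8, summed to 582 to 836 CPM against at most 140 CPM in any tumor, and the part of these cells in the Lef1 difference was not tested.

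Of 12 feedback targets, 2 rose and 7 fell in B1/P/Rbf tumors, and 1 rose and 2 fell in P/Rbf tumors, with medians of -2.20 and -0.86. The 9 B1/P/Rbf calls became 3 without B1/P/Rbf tumor 1 or 2, 4 without B1/P tumor 4 or with only the compared groups, and 5 with the library-set term or without B1/P/Rbf tumor 3, B1/P tumor 3 or normal gland 3. The 3 P/Rbf calls became 5 with DESeq2. Nkd2, a Dishevelled-binding inhibitor, had 7.26, 3.32, 7.31, 8.75 and 11.1 CPM in the B1/P/Rbf tumors and 366, 177, 340, 356 and 535 CPM in the B1/P tumors. Nkd2 in the P/Rbf tumors was at 6.76, 325, 20, 9.5 and 4.39 CPM. All B1/P tumors were far above all B1/P/Rbf tumors (log2 fold change -5.56 ± 1.06 SE, edgeR adjusted p = 0.00254), and P/Rbf tumor 2 alone among the P/Rbf tumors reached the B1/P range. P/Rbf tumors were not called against B1/P for Nkd2 (log2 fold change -2.28 ± 0.91 SE, edgeR adjusted p = 0.0866), but without P/Rbf tumor 2 they were (log2 fold change -5.12, adjusted p = 7.09e-05). Its homologue Nkd1 fell in B1/P/Rbf (log2 fold change -2.14 ± 0.43 SE, edgeR adjusted p = 0.00324) and P/Rbf tumors (log2 fold change -1.79 ± 0.42 SE, edgeR adjusted p = 0.00846), every B1/P tumor being above every T121 tumor. Sp5, a β-catenin target, had 2.72, 0.405, 0.165, 0.0507 and 0.0325 CPM in the B1/P/Rbf tumors and 0, 0.0592, 0, 0 and 0 CPM in the B1/P tumors. Sp5 in the P/Rbf tumors was at 4.03, 0, 0, 0.158 and 0.409 CPM, and 1 tumor of each T121 group carried most of its reads. It was called higher in B1/P/Rbf (edgeR adjusted p = 0.0493) and P/Rbf tumors (edgeR adjusted p = 0.0332), with no fold change given since every B1/P tumor was under the floor of 3 counts. Sp5 passed the filter on low counts only through T121 tumors, so its rise over B1/P was built in by the filter. The B1/P/Rbf call was lost without B1/P/Rbf tumor 1, 2 or 3, B1/P tumor 1, 2, 3, 4 or 5, P/Rbf tumor 4 or 5 or normal gland 1, 2 or 3 (adjusted p = 0.0503 to 0.179), with limma-voom (adjusted p = 0.142), without the filter (adjusted p = 0.0581) and with a library-set term (adjusted p = 0.168), and the P/Rbf call without B1/P tumor 1, 3, 4 or 5 or P/Rbf tumor 1 (adjusted p = 0.065 to 0.17), with limma-voom (adjusted p = 0.203), with only the compared groups fitted (adjusted p = 0.0689) and with a library-set term (adjusted p = 0.16). Several targets stand in other lists too, namely Rnf43, Znrf3, Notum, Apcdd1, Lef1, Tcf7 and Wif1. Among 10 planar cell polarity genes 1 rose and 4 fell in B1/P/Rbf tumors, Prickle1 with the largest change (log2 fold change -2.12 ± 0.54 SE, edgeR adjusted p = 0.0134) and Daam1, a formin acting below Dishevelled, as the one that rose (log2 fold change 1.04 ± 0.23 SE, edgeR adjusted p = 0.00687). In P/Rbf tumors 1 rose and 1 fell, namely Daam1 (log2 fold change 1.08 ± 0.23 SE, edgeR adjusted p = 0.00519) and Prickle1 (log2 fold change -2.25 ± 0.54 SE, edgeR adjusted p = 0.00932). The B1/P/Rbf value of Prickle1 moved to -2.85 without B1/P/Rbf tumor 2, and its call was lost with a library-set term (adjusted p = 0.064). The 5 B1/P/Rbf calls became 2 without B1/P/Rbf tumor 5, 3 without B1/P/Rbf tumor 2 or 4 or B1/P tumor 3 or 5, and 1 with the library-set term. The medians of this list were -1.16 and -0.29.

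No gene of these lists was called by edgeR between the T121 groups. Under the other tools and filters at most 1 feedback target was called there, and no gene of the other lists. Against the normal gland, 7 of 14 cytoplasmic genes rose in B1/P/Rbf, 5 in B1/P and 7 in P/Rbf tumors, and none fell, beside 17.1%, 16.8% and 17.4% of all genes higher and 20.0%, 16.9% and 20.3% lower. The 7 B1/P/Rbf calls became 3 without gland 1 or gland 3 and 1 with the library-set term, and the 5 B1/P calls became 3 with it. Ctnnb1 was among them, with log2 fold changes of 1.74 ± 0.27 (SE, edgeR adjusted p = 0.0001), 1.04 ± 0.26 (SE, edgeR adjusted p = 0.00563) and 1.59 ± 0.27 (SE, edgeR adjusted p = 0.000205). Of the 10 planar cell polarity genes 4, 4 and 5 rose and none fell, the 4 in B1/P/Rbf tumors becoming 2 with the library-set term. Feedback targets gave 2 higher and 4 lower in B1/P/Rbf, 4 and 2 in B1/P and 3 and 4 in P/Rbf tumors. Other modulators gave 2 and 4, 3 and 3, and 0 and 3 in that order. Coreceptors and alternative receptors gave 3 and 1, 3 and 0, and 3 and 1. For Wnt secretion these were 2 and 0, 2 and 0, and 1 and 1. R-spondins and ligases gave 1 and 0, 1 and 0, and 1 and 1. With the library-set term the B1/P/Rbf calls became 1, 0, 2, 0 and 1 in the order of these lists. The nuclear genes split, with 4 rising and 4 falling in each T121 group and 3 rising and 1 falling in B1/P tumors, Lef1 among those that fell in all 3 groups with log2 fold changes of -6.85 ± 1.24 (SE, edgeR adjusted p = 0.000411), -4.53 ± 1.13 (SE, edgeR adjusted p = 0.00532) and -6.30 ± 1.21 (SE, edgeR adjusted p = 0.00065). The 8 nuclear calls became 2 in B1/P/Rbf and the 4 became 2 in B1/P tumors with the library-set term, and the 8 in P/Rbf tumors became 4 without gland 1 or gland 3. The Lef1 call was lost with the library-set term in B1/P/Rbf (adjusted p = 0.126) and B1/P tumors (adjusted p = 0.067). Tcf7 fell below the gland in B1/P/Rbf (log2 fold change -3.58 ± 0.63 SE, edgeR adjusted p = 0.000324) and P/Rbf tumors (log2 fold change -3.44 ± 0.63 SE, edgeR adjusted p = 0.000422), and Nkd2 stood above it in B1/P (log2 fold change 6.89 ± 1.43 SE, edgeR adjusted p = 0.00146) and P/Rbf tumors (log2 fold change 4.61 ± 1.28 SE, edgeR adjusted p = 0.00905). The Tcf7 call in B1/P/Rbf tumors was lost with a library-set term (adjusted p = 0.114), and the Nkd2 call in P/Rbf tumors with limma-voom (adjusted p = 0.0543) and with only the compared groups fitted (adjusted p = 0.0635). The P/Rbf rise of Nkd2, with tumor 2 at 325 CPM, became 1.77 without P/Rbf tumor 2. Lef1 in B1/P tumors moved to -6.70 without B1/P tumor 4.

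**Figure D5:**
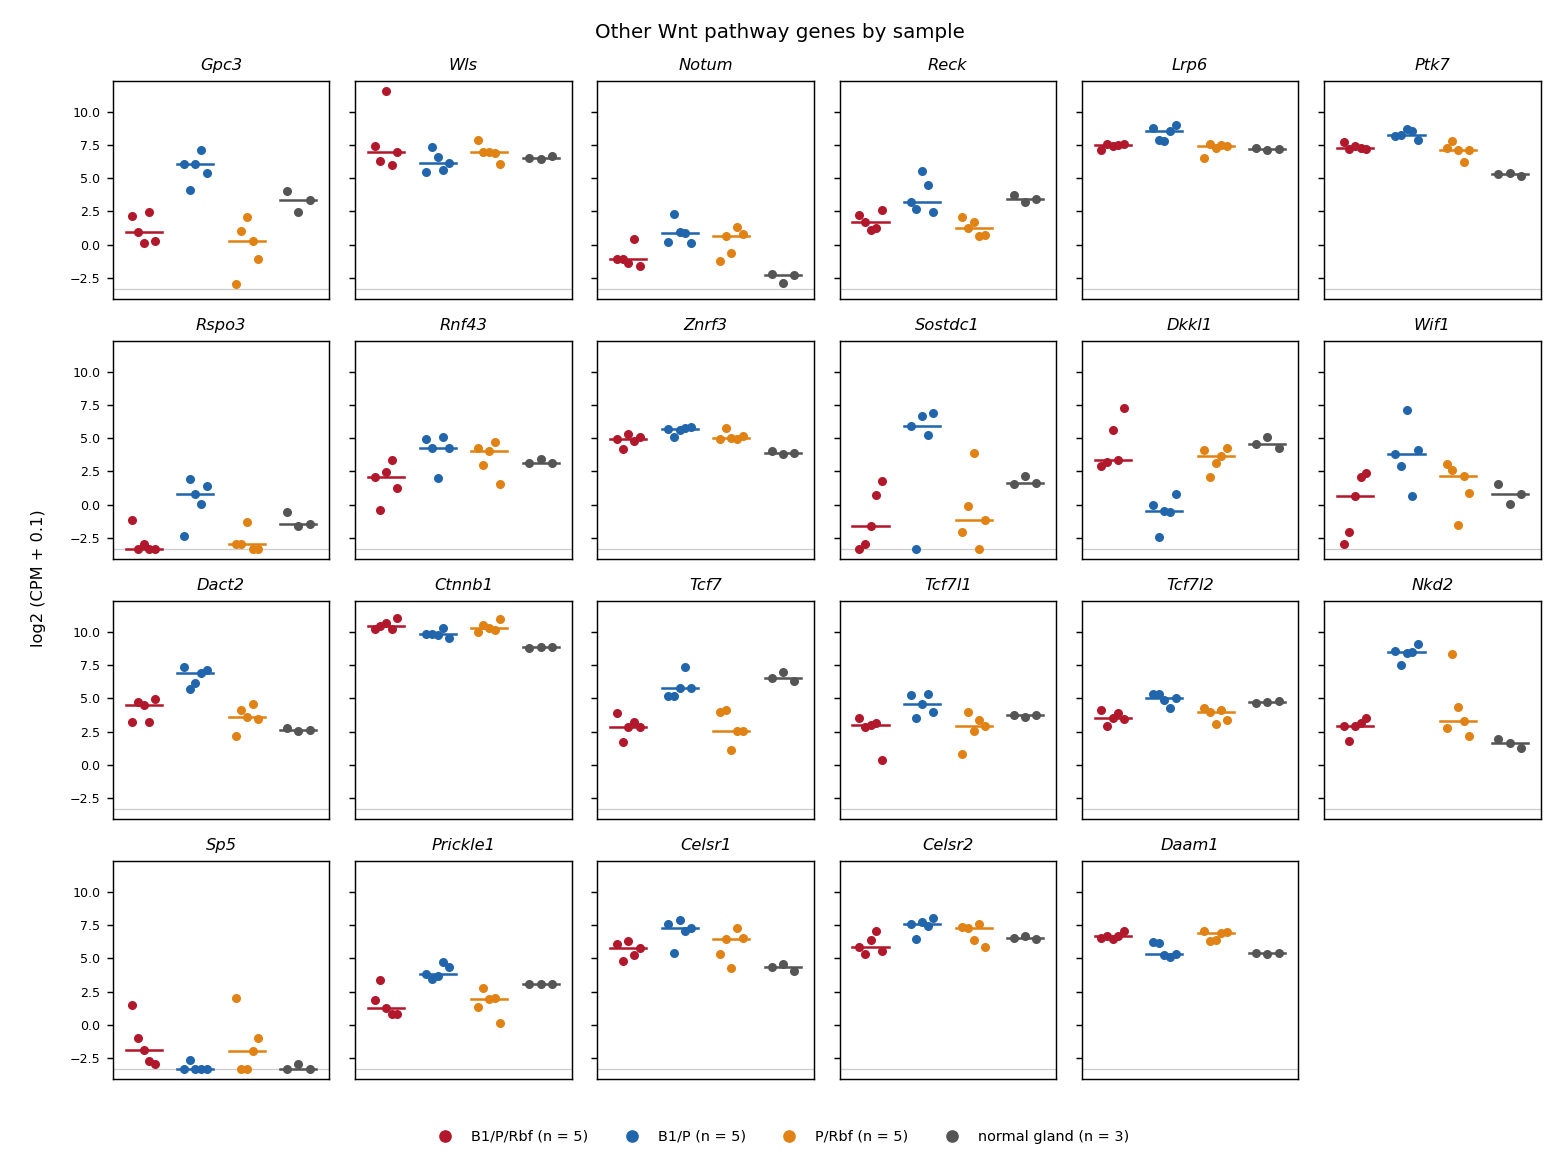
Levels of 23 other Wnt pathway genes, chosen as the called genes of each list with the largest changes, in each sample as log2(CPM + 0.1) on a shared vertical axis, with 1 point per tumor or gland, 1 panel per gene, a color per group and a short bar at each group's median. Nkd2, Gpc3 and Tcf7 lie higher in B1/P tumors than in all B1/P/Rbf tumors, Dkkl1 lies lower, and single high points stand out for Wls (3022 CPM in B1/P/Rbf tumor 3) and Nkd2 (325 CPM in P/Rbf tumor 2).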

How the data were processed

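Total RNA from the tumors and glands was made into stranded mRNA libraries, pooled and sequenced in paired ends. The authors trimmed and checked reads (cutadapt 1.18, FastQC 0.11.5, Picard 1.119) and deposited expected counts per gene from RSEM 1.3.0, per the labels and the submitters' processing notes, which also list DESeq2 1.28.1. Expected counts divide reads that map to several genes, and 5.61% of the deposited values were not whole. The strand setting used in counting was not given, so reads of Wnt5a, Wnt7b, Wnt11, Fzd5, Fzd6, Sfrp2 and Axin2 and of the antisense genes that share exon bases with them cannot be told apart if it was not used. The highest level of such an antisense gene was 13.6 CPM, for AU022754 opposite Wnt7b. The methods name a human reference, but all 55450 gene IDs were those of mouse GENCODE M21 (GRCm38), the build of the coordinates given.

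Expected counts were rounded and tested with edgeR 4.0.16 (R 4.3.3) by the quasi-likelihood test after TMM scaling, with genes kept by filterByExpr at a minimum count of 10, all 18 samples in 4 groups fitted together and p-values adjusted by Benjamini-Hochberg over 19186 genes. The SE of a log2 fold change is its size divided by the square root of F. Group values are means ± SD. Total counts were 27661173 to 37794889 per sample (median 33802255), and a count of 3 per library was taken as the floor. Replicates are separate mice, 1 library each. On simulated counts for B1/P/Rbf against B1/P over 19186 genes, 80 of 200 changed genes were called and 3 others, namely 7 of 78 changed 2-fold, 27 of 56 changed 4-fold and 46 of 66 changed 8-fold. In the data 7.36% of genes were called higher and 9.29% lower, a larger share than was changed in the simulation. With fewer changed genes the adjusted p is stricter, so these shares are not the sensitivity of the test on the data. A missed call does not show that a gene is unchanged.

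Alternatives were DESeq2 1.42.0, limma-voom (limma 3.58.1) after quantile normalization, omission of TMM, omission of the filter, filters at a CPM or a log2 CPM of 6 in 6 samples, a fit of only the groups compared, a term for 2 assumed library sets and each sample left out in turn. Set 1 holds B1/P tumors 1 to 3 and all B1/P/Rbf tumors, and set 2 the other samples, a split inferred from the study's published fold changes and given by neither labels nor methods. Only the B1/P group lies in both sets, so the term is estimated from B1/P tumors 1 to 3 against the other B1/P tumors. It carries their differences into comparisons between the sets, and a set effect cannot be told apart from differences among these tumors. The family members and pathway lists were chosen with earlier results of these data known. Values by sample are given for members called between tumor groups, and pathway genes are named from the 4 called genes of each list with the largest log2 fold change. Levels of different genes were compared only as CPM per kb of merged exons. Promoter sequences and starts are from RefSeq (GRCm38.p6), and 28 of the 41 genes matched.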

Additional observations from a re-analysis of the deposited data

Results flagged for a closer look

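Single tumors stood far above the rest of their group, by Dixon's ratio at its 95% critical value, in 23 of 98 pairs of gene and tumor group (23.5%), always at the highest sample. The critical value gives about 1 in 20 by chance for normally distributed values, and CPM are skewed to high values, with 13.9% of 55907 such pairs over all genes past it. The count is thus a description and not a result about these genes. P/Rbf tumor 2 held 6 of these values, namely Wnt7b (355 CPM), Wnt9a (41.8 CPM), Fzd1 (130 CPM), Sfrp1 (70.8 CPM), Sfrp5 (0.158 CPM) and Axin2 (8.52 CPM). B1/P tumor 2 held 5, namely Wnt2 (4.65 CPM), Wnt2b (2.37 CPM), Wnt7b (99.9 CPM), Wnt9a (12 CPM) and Wnt16 (1.16 CPM). B1/P/Rbf tumor 1 held 4, namely Sfrp1 (71.7 CPM), Sfrp2 (21 CPM), Sfrp4 (3.38 CPM) and Dkk2 (300 CPM). The others were Wnt10a (69.4 CPM) and Wnt10b (5.5 CPM) in B1/P tumor 3, Lgr5 (143 CPM) in B1/P tumor 1, Fzd7 (1584 CPM) in B1/P tumor 4, Wnt5a (165 CPM) in B1/P tumor 5, Wnt6 (0.26 CPM) in B1/P/Rbf tumor 5, Wnt11 (33.4 CPM) in P/Rbf tumor 1 and Wnt16 (1.76 CPM) in P/Rbf tumor 4.

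For some genes the fitted log2 fold change against the normal gland was positive in one tumor group and negative in another, and edgeR called the difference between the tumor groups. Listed here are those also called against the gland in at least 1 of both tumor groups. Lgr6 was called on both sides of the gland and the other genes on 1 side. For B1/P/Rbf against B1/P the log2 fold change was 3.07 for Wnt5a, -6.70 for Wnt6, -4.67 for Wnt10a, -3.44 for Wnt10b, -7.58 for Fzd9, -2.97 for Lgr4 and -5.67 for Lgr6. For P/Rbf against B1/P it was -6.65 for Fzd9 and -5.74 for Lgr6.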

How the results depend on the processing

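Over the 6 comparisons, calls of family members held in 1505 of the gene and setting pairs run and were lost in 159, with no change of sign, while genes not called became called in 110 and stayed uncalled in 3134. These pairs include fits that left out a sample of neither compared group, which change a comparison little. The totals are thus no measure of how firm the calls are. For B1/P/Rbf against B1/P the 16 calls became 2 under the log2 CPM filter, which tests 5 of the genes, and 15 to 17 when 1 sample was left out. For P/Rbf against B1/P the 15 calls became 23 with DESeq2, 4 under the log2 CPM filter, 5 with only the compared groups, 5 with the library-set term and 8 to 15 with 1 sample left out, the lowest without P/Rbf tumor 5. For B1/P/Rbf against P/Rbf the count of 0 became 2 with DESeq2 and 0 to 1 with 1 sample left out, the 1 being reached without B1/P/Rbf tumor 3 or P/Rbf tumor 1. Against the gland, the 14 calls of B1/P/Rbf became 8 under the CPM filter, 2 under the log2 CPM filter, 7 with the library-set term and 9 to 17 with 1 sample left out, the lowest without gland 3. The 11 of B1/P became 2 under the log2 CPM filter, 6 with the library-set term and 5 to 12 with 1 sample left out, the lowest without gland 3. The 11 of P/Rbf became 7 under the CPM filter, 3 under the log2 CPM filter and 9 to 14 with 1 sample left out. The CPM and log2 CPM filters test fewer genes, and the cause of the other changes was not tested. Genes whose groups do not overlap numbered 8 to 13 for B1/P/Rbf against B1/P, 3 to 9 for P/Rbf against B1/P and 0 to 3 for B1/P/Rbf against P/Rbf with 1 sample left out. No share of all genes was computed for these counts, and leaving out a tumor makes such separation easier. Among the other pathway genes, Dvl2, called in B1/P/Rbf tumors against the gland, reversed there from a log2 fold change of 0.84 to -0.08 (edgeR adjusted p = 0.902) with the library-set term. Uncalled pathway genes changed sign too, among them Dkkl1 in that comparison, from 0.88 to -0.43 without B1/P/Rbf tumor 5.

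No paired analysis was possible because sample numbers follow the order of the labels and each sample is a different mouse. Genes near the floor, among them Sfrp5, Wnt7a and Sp5, are known only to within a few reads per library.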
